A study of Arabidopsis thaliana with 12 samples.

Results

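miR822 and miR839 are microRNAs (miRNAs) of Arabidopsis thaliana, and 3 of the 390 names in the deposited table of small RNA counts belong to them: miR822-3p and miR822-5p, the 2 arms of the MIR822 hairpin, and miR839-5p from the MIR839 hairpin, listed as ath-miR822-3p, ath-miR822-5p and ath-miR839-5p. They were taken by name, as every row that starts with either family, with no cut-off on a measured value. The families were chosen with earlier results of these data known. The libraries came from shoots of 10-day-old Col-0 seedlings, grown for 5 days on standard nutrients and then for 5 days in the condition tested. The 4 groups, each with 3 libraries labelled as biological replicates, were the hasty knockout (labelled hasty-KO) in low nitrogen (low N), wild type (WT) in low N, the hasty knockout in the control condition and WT in the control condition. All plants are Col-0; the labels name neither the hasty allele nor the control medium, and small RNA counts cannot check the knockout. The listed counts summed to between 1292752 and 3226269 per library, lowest in hasty low N (1292752 to 1767854) and highest in WT control (2808655 to 3226269), so each level is a share of what the table lists and no absolute amount. The labels call the replicates biological without naming separate cultures or plants, so p-values measure the spread between these libraries.

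Most plant miRNAs are cut by DICER-LIKE 1 from short, imperfect hairpins. Recently evolved families can instead have long and nearly perfect hairpins that still resemble the genes they arose from, and miR822 and miR839 are known as families cut by DICER-LIKE 4, the enzyme that otherwise makes secondary small interfering RNAs from long double-stranded RNA. HASTY is the plant relative of the export receptor exportin-5, and its loss lowers many but not all miRNAs. The libraries hold no mutant of either dicer, so the dependence on DICER-LIKE 4 is background here and was not tested.

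The mature sequences, read from the RefSeq annotation of TAIR10.1 by exact name, are shown because they set which transcripts each name could pair with. Capitals mark the seed, bases 2 to 8 from the 5′ end.
miR822-5p: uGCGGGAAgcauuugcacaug
miR822-3p: uGUGCAAAugcuuucuacagg
miR839-5p: uACCAACCuuucaucguuccc
All 3 are 21 bases long and start with U. Their seeds differ from each other, and 0 other annotated Arabidopsis miRNA names share any of them. Each sequence is annotated at 1 locus and stands under 1 name in the table, so no reads were split between names of 1 sequence.

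miR822-5p lies on chromosome 5 at 897287 to 897307 and miR822-3p at 897067 to 897087, both on the minus strand in the hairpin chr5:897020-897356. That hairpin lies inside AT5G03553, an annotated coding gene of the opposite strand, and overlaps none of its exons. miR839-5p lies on chromosome 1 at 25279138 to 25279158 in the hairpin chr1:25278944-25279207, also on the minus strand, which overlaps the noncoding locus AT1G08943 of the same strand. The hairpins are shown because their shape is what the families are known for, with the annotated mature parts in capitals; of MIR822 the 2 sides around its arms are given, and MIR839 is whole.
MIR822 5p side, chr5:897257-897337, minus strand: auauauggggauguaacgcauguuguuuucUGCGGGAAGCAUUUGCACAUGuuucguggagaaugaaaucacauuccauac
MIR822 3p side, chr5:897037-897117, minus strand: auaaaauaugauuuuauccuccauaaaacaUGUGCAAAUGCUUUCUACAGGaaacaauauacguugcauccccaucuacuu
MIR839: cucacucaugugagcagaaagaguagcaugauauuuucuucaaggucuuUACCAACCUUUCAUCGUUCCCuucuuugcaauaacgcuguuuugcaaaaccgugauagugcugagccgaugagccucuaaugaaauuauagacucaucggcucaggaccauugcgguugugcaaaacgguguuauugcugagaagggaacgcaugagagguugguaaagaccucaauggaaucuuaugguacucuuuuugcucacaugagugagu
The annotated MIR822 and MIR839 hairpins are 337 and 264 bases long, where the median of all 326 annotated Arabidopsis hairpins is 144.5. In the minimum free energy fold 87.9% of the MIR839 bases were paired, a share reached by 3 of the 326 hairpins, itself included. For MIR822 the share was 83.1%, reached by 32 of the 326, and the median was 73.1%. In the fold, 18 of the 21 bases of miR822-5p paired with bases of miR822-3p, and each arm ran 2 bases past the other at its 3′ end, the form that dicer enzymes leave. The arms are 199 bases apart in the hairpin. All 21 bases of miR839-5p were paired.

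The MIR822 hairpin resembled genes for Cysteine/Histidine-rich C1 domain proteins, a large plant family of zinc-binding domain proteins, along both of its sides. Outside its own locus it aligned (blastn, E value up to 1e-5) to 46 annotated loci, of which 42 carry a C1 or DC1 domain in their name, out of 152 such loci in the annotation. The 40 alignments of C1 domain loci to the 5p side all ran on the strand opposite to the gene, and the 23 to the 3p side all ran on the gene's own strand. Of these loci, 21 aligned to both sides, and 39 had an alignment that covered miR822-5p itself. The alignments covered 51 to 176 bases at 68.8% to 86.3% identity, and the alignment to AT2G40050, a C1 domain gene, had 78.2% identity over 147 bases. MIR839 aligned to 1 other stretch, at 75.5% over 106 bases, where ABCB9 (P-glycoprotein 9) and AT4G18060 (an SH3 domain protein) overlap.

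Among the annotated mRNAs of 31346 genes, 4 held a stretch complementary to miR822-5p with at most 2 mismatches, G:U pairs counted as mismatches. All 4 code for C1 domain proteins and all 4 stretches are in coding sequence. They are printed 5′ to 3′ on the transcript's strand, with the complementary bases in capitals.
AT2G13900, chr2:5834363-5834383, plus strand: CATGTGCAAATGCTTCtCGCA
AT5G02330, chr5:487967-487987, minus strand: CATGTGCAAATGCTTCtCGCA
AT5G02350, chr5:495991-496011, minus strand: CATGTGCAAATGCTTCtCGCA
AT2G02620, chr2:718515-718535, plus strand: CATGTGCAgATGCTcCCCGCA
The first 3 differ from full complementarity at 1 base and the last at 2. For miR822-3p and miR839-5p no annotated mRNA came closer than 4 mismatches, with 12 and 16 genes at that number. These are matches of letters, and cutting of these transcripts was not measured.

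**Figure D1:**
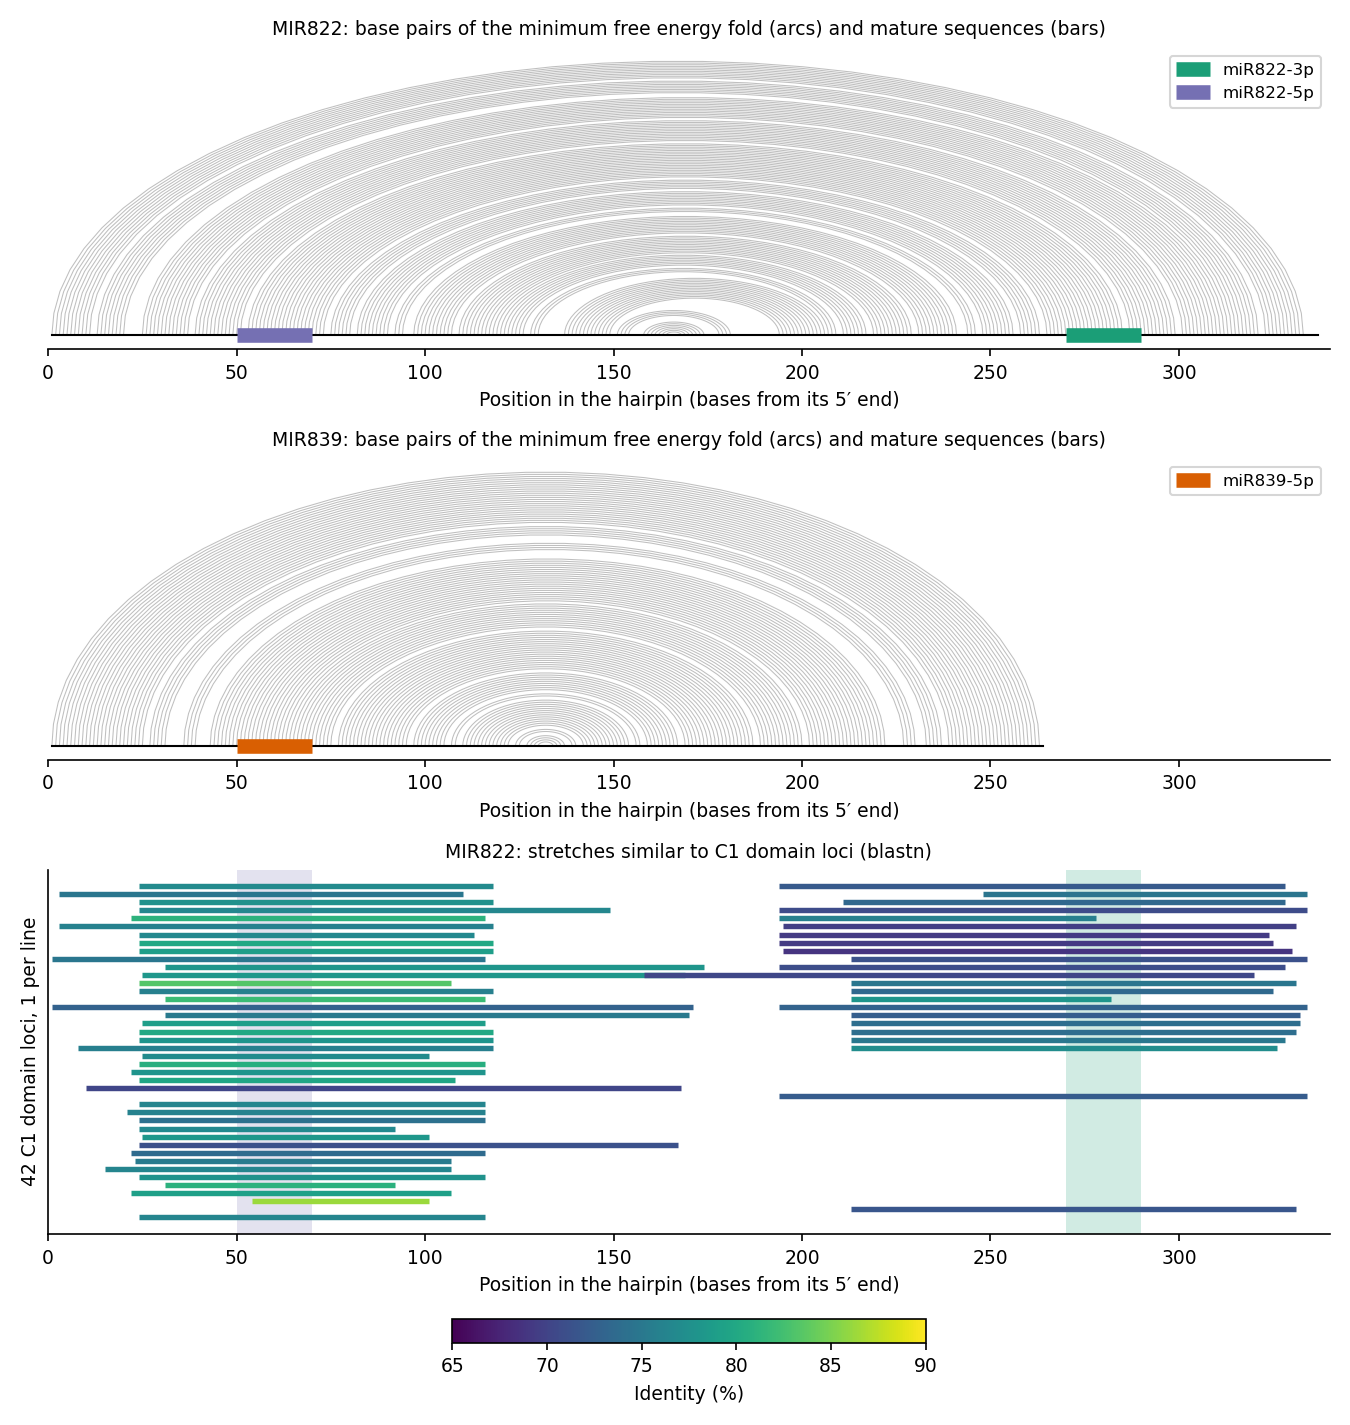
Base pairs of the folded MIR822 and MIR839 hairpins as arcs, with mature sequences as coloured bars, and below them the stretches of MIR822 that align to 42 C1 domain loci, 1 locus per line and coloured by identity in percent; the x axes give the position in bases from the 5′ end of the hairpin. Nested arcs span both hairpins almost from end to end, and 21 loci have lines on both sides of MIR822.

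Both miR822 arms were among the more abundant names where they were listed, and both were listed at 0 in the same 3 control libraries: hasty control replicate 3 and WT control replicates 2 and 3. In the other 9 libraries miR822-3p held 3816 to 6312 counts and miR822-5p up to 5057, with a lowest level of 1259 CPM (counts scaled to 1000000 per library after edgeR's trimmed-mean, TMM, normalization). The 3 libraries were not shallow: their totals were 1946702, 3199645 and 3226269, they listed 253, 257 and 272 names above 0, and they held miR839-5p at 191, 113 and 167 counts. Scaled by library totals alone, without TMM, 85 names stood at 100 CPM or more in all 9 other libraries. Of these, 3 were at 0 in any of the 3 libraries, namely both miR822 arms in all 3 and NovelmiRNA-46 in 1. No name was listed in all 3 of these libraries and at 0 in the other 9, so the table holds no row of the opposite pattern. Over the whole table, 64 cells were at 0 beside 50 or more counts in both sister libraries. The miR822 zeros of hasty control replicate 3 are of this kind. Those of WT control replicates 2 and 3 are not, as both of these libraries are at 0. The 3 pairs of miR822 zeros are given as unlisted and not as absent. Each comparison of miR822 levels between groups is given with all 12 libraries and with the 9 that list it. The ratio to miR839-5p and the correlations among the 3 names use the 9 alone.

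In low N, where every library listed it, both arms of miR822 stood higher in all hasty libraries than in any WT library, and whether the test called this turned on the 3 control libraries with zeros. miR822-3p stood at 3104, 3203 and 3725 CPM in hasty low N and at 2596, 1909 and 2119 in WT low N. miR822-5p, the arm with the C1 domain matches above, stood at 3015, 2764 and 2596 CPM in hasty low N and at 1843, 1470 and 1953 in WT low N. For both arms the 3 hasty libraries did not overlap the 3 WT libraries, a separation upward that 23.1% of the 273 tested names showed.

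The means in low N were 3344 ± 334 CPM in hasty and 2208 ± 352 in WT for miR822-3p, and 2792 ± 211 in hasty and 1756 ± 253 in WT for miR822-5p (SD, n = 3). The fitted sizes were 1.51-fold and 1.59-fold. In edgeR's quasi-likelihood test, fitted on the 6 low N libraries alone, the log2 changes were 0.65 (adjusted p = 0.021) and 0.72 (adjusted p = 0.0071). That fit filtered names anew on its 6 libraries, with Benjamini-Hochberg adjustment over the names it kept and not over a fixed 273. In the fit over all 12 libraries, where the unlisted control libraries enter the shared spread, the values of the same arms were 0.60 ± 2.45 and 0.67 ± 2.44 (log2 ± SE), with adjusted p = 0.92 and 0.91. In the fit over the 9 libraries that list miR822, the values were 0.60 ± 0.13, adjusted p = 0.012, and 0.67 ± 0.12, adjusted p = 0.0063. The biological coefficient of variation of miR822-3p was 2.16 with the zeros and 0.151 without them.

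In the control condition, miR822-3p stood at 2365 and 2551 CPM in hasty replicates 1 and 2 and at 1375 CPM in WT replicate 1. For miR822-5p the values were 1804 and 2108 CPM in hasty and 1259 CPM in WT. The hasty libraries that listed the arms lay above the single WT library that did. Over the 9 libraries, miR822-3p was 1.79-fold higher in hasty control than in WT control (log2 change 0.84 ± 0.20 SE, edgeR adjusted p = 0.024), and for miR822-5p the change was 0.64 ± 0.19 with adjusted p = 0.058. With 1 WT control library in that fit, its spread was assumed to be that of the other groups. Over all 12 libraries the changes were 1.84 ± 2.52 and 1.64 ± 2.49, adjusted p = 0.605 and 0.634; these sizes include the zeros. Without WT control replicate 1, the only WT control library that lists miR822, both arms passed the threshold in hasty against WT control (edgeR adjusted p = 0.018) and in low N against control in WT (adjusted p = 0.025), with WT control then at 0 throughout and no size that can be read.

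Between low N and control, 1 of the 4 changes of miR822 passed the threshold of an adjusted p of 0.05 over 9 libraries, that of miR822-3p in WT, where 9.89% of names were called higher, and none did over 12. In WT, over the 9 libraries, the log2 change of miR822-3p in edgeR was 0.68 ± 0.19 (SE) and that of miR822-5p 0.48 ± 0.18. These set 3 low N libraries against the 1 WT control library that lists miR822. Its spread was assumed to be that of the other groups. In hasty, the changes were 0.44 ± 0.14 (adjusted p = 0.084) and 0.51 ± 0.14 (adjusted p = 0.055). All 3 hasty low N libraries lay above both hasty control libraries that listed the arms. Over all 12 libraries the log2 changes of miR822-3p and miR822-5p were 2.27 ± 2.56 and 2.06 ± 2.53 in WT, and 1.03 ± 2.47 and 1.10 ± 2.46 in hasty. These sizes include the zeros, and the edgeR adjusted p-values of the 4 changes were 0.607 to 0.876.

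miR839-5p was listed in all 12 libraries, at 113 to 239 counts, and its libraries did not overlap in any of the 4 comparisons. It stood at 137.4, 137.4 and 126 CPM in hasty low N and at 98.3, 87.5 and 73.7 CPM in WT low N. In the control condition it stood at 66.2, 61.3 and 102.3 CPM in hasty and at 37.2, 29.1 and 47.3 CPM in WT. The 3 libraries of hasty lay above the 3 of WT in each condition, and the 3 of low N above the 3 of control in each genotype. Such a separation was found for 23.1% of the tested names between hasty and WT in low N, for 26.4% in control, for 25.6% between low N and control in WT and for 18.3% in hasty.

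**Figure D2:**
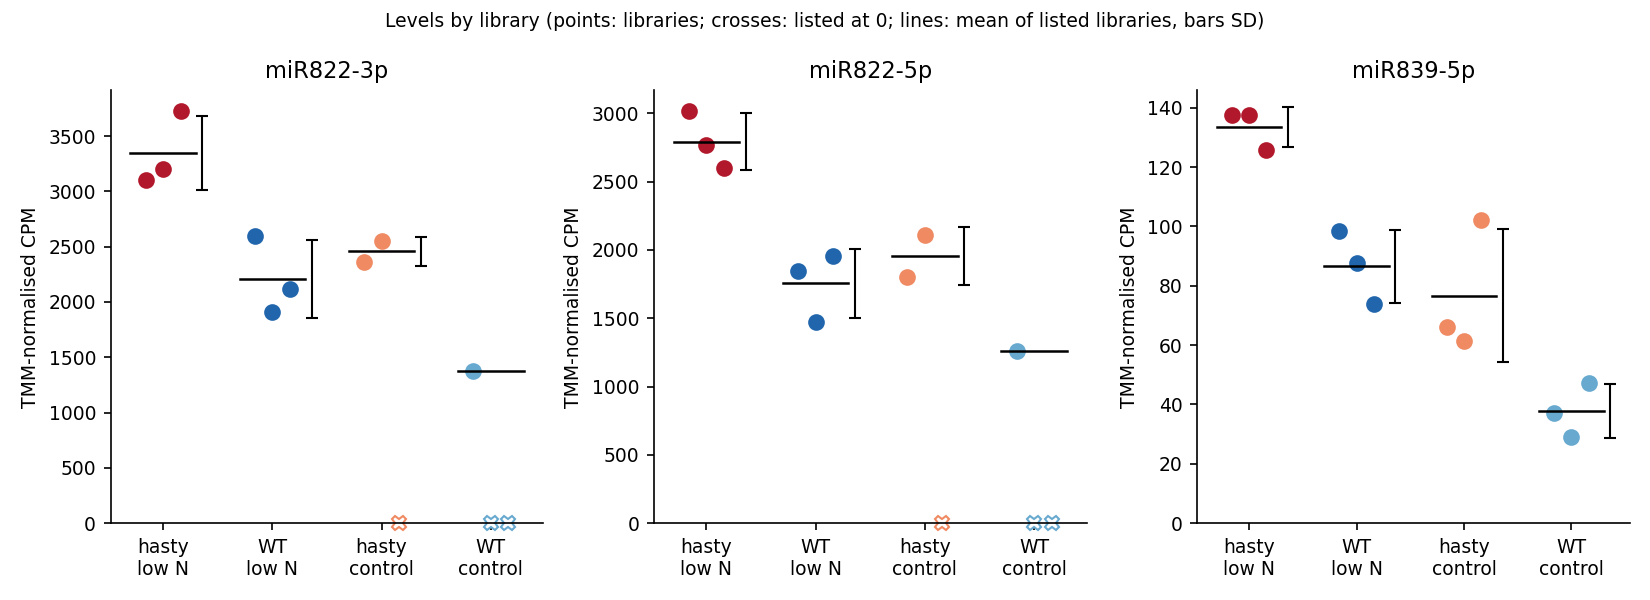
TMM-normalised CPM (y axes) of the 3 names in each library, by group (x axes); points are libraries, crosses are libraries that list the name at 0, lines are means of the listed libraries and bars their SD. hasty low N is the highest group in all 3 panels, with means of 3344, 2792 and 134 CPM, and the crosses mark 1 hasty control and 2 WT control libraries.

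The group means of miR839-5p were 134 ± 6.65 CPM in hasty low N, 86.5 ± 12.3 in WT low N, 76.6 ± 22.4 in hasty control and 37.9 ± 9.13 in WT control (SD, n = 3). For both miR822 arms hasty low N was also highest and WT control lowest, with hasty control above WT low N. WT low N and hasty control, neighbours in this order, overlapped for all 3 names. In edgeR's fit over 12 libraries miR839-5p rose 2.02-fold in hasty control against WT control (log2 change 1.01 ± 0.24 SE, adjusted p = 0.0070) and 2.28-fold in WT low N against WT control (1.19 ± 0.24, adjusted p = 0.0043). It rose 1.74-fold in hasty low N against hasty control (0.80 ± 0.24, adjusted p = 0.0395). Between hasty low N and WT low N the log2 change was 0.63 ± 0.24, with adjusted p = 0.071.

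These calls differed in how much rested on single libraries. The rise in hasty under low N missed the threshold without 1 of hasty control replicate 1 or 2, WT control replicate 1, any hasty low N library, or WT low N replicate 1 or 2, with log2 changes of 0.71 to 0.80 and edgeR adjusted p = 0.051 to 0.13. The difference between hasty and WT in low N passed it without hasty control replicate 2 (0.82, adjusted p = 0.024) or replicate 3 (0.63, adjusted p = 0.038). Over both conditions together, the level on the log2(CPM + 1) scale was 0.81 higher in hasty than in WT and 1.01 higher in low N than in control, each with p = 0.005 in a two-sided exact permutation of 1 factor within the other, the smallest p that the 400 assignments allow (adjusted over 8 tests, p = 0.02). Without the 3 libraries that list miR822 at 0, the change of miR839-5p between hasty and WT in control was 0.78, edgeR adjusted p = 0.060.

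Set against all names tested, 1 of the 3 was called higher in hasty control in the fit over 12 libraries, where 18.7% of the 273 names were, and 0 of 3 in low N, where 11.4% were. In WT low N against WT control the count was 1 of 3 against 17.2% of names, and in hasty 1 of 3 against 8.79%. In the fit over 9 libraries the count in low N was 3 of 3 against 12.1% of names called higher in hasty, and in control 1 of 3 against 9.16%. Between low N and control it was 2 of 3 in WT against 9.89%, and 1 of 3 in hasty against 5.86%. Of these 3 names 2 are arms of 1 hairpin and share their source. The 9 libraries were kept because they list miR822, so its own values picked them. Leaving out the 3 others took the biological coefficient of variation of miR822-3p from 2.16 to 0.151. The median over all tested names went from 0.320 to 0.413. Comparisons with WT control in that fit rest, for miR822, on 1 library of that group. The median log2 change over the 3 names in low N was 0.63 between hasty and WT, beside 0.0 over all 273.

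The difference between genotypes was not shown to depend on nitrogen for any of the 3 names. The interaction over 12 libraries was -0.39 ± 0.34 (log2 ± SE) for miR839-5p, with edgeR adjusted p = 0.63, and -1.24 ± 3.47 and -0.97 ± 3.44 for miR822-3p and miR822-5p, both with adjusted p = 1.0. Over 9 libraries it was -0.15 ± 0.28 for miR839-5p, -0.24 ± 0.23 for miR822-3p and 0.03 ± 0.22 for miR822-5p, with edgeR adjusted p of 0.805 to 1.0. No member was called in either fit, where 1.83% of names were over 12 libraries and 3.3% over 9.

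**Figure D3:**
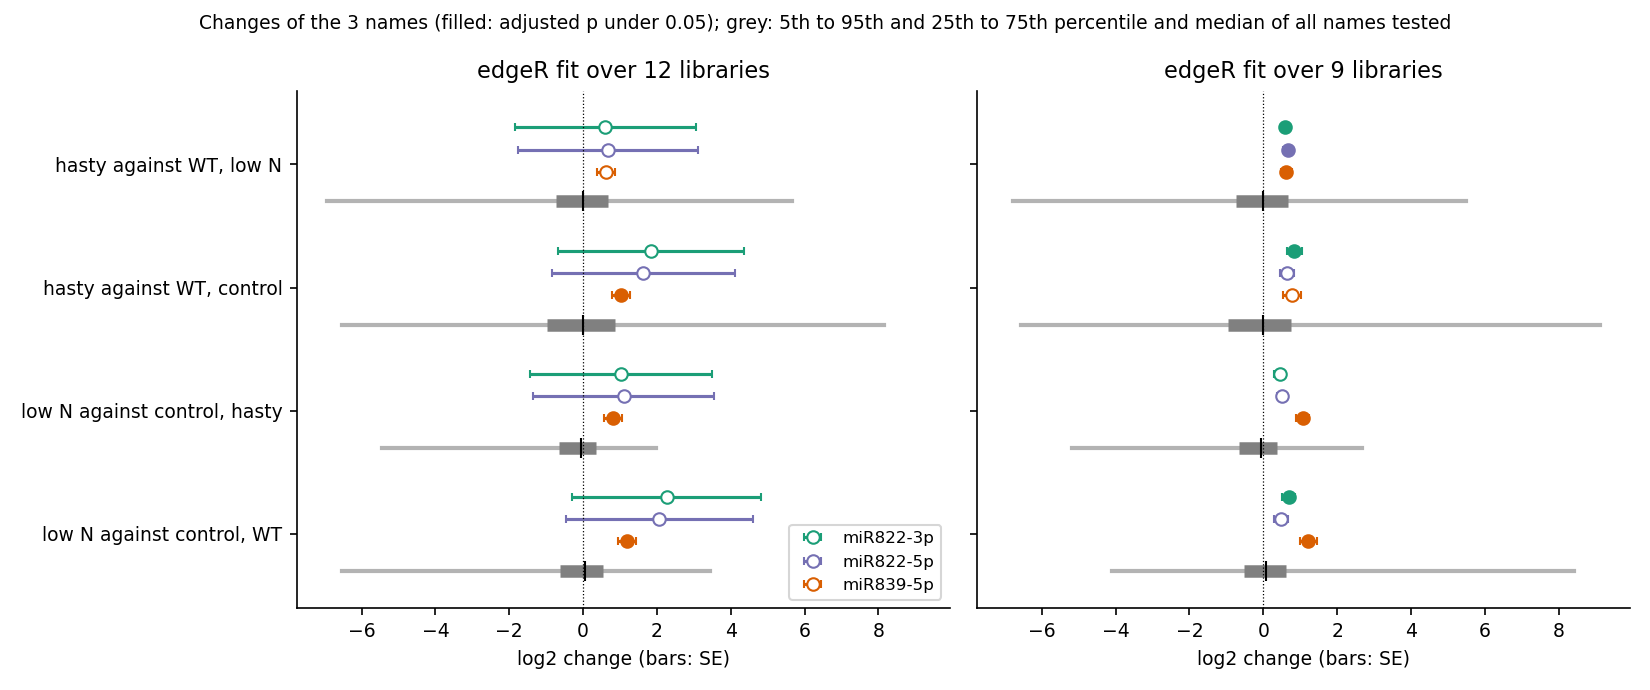
Log2 changes (x axes) of the 3 names in the 4 comparisons (y axes), with SE as bars, in edgeR's fit over 12 libraries (left) and over the 9 that list miR822 (right); filled points have an adjusted p under 0.05, and grey bars give the 5th to 95th and 25th to 75th percentile and a tick the median of all 273 names. Every point lies above 0, and the SE of miR822-3p in low N is 2.45 on the left and 0.13 on the right.

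Ratios of names within a library do not depend on its scaling. Over the 9 libraries that list miR822, its ratio to miR839-5p was lower in low N than in control, short of the threshold after adjustment. There were 44.5, 43.4 and 50.2 miR822 counts (both arms) per miR839-5p count in hasty low N, and 45.2, 38.6 and 55.2 in WT low N. In control there were 63.0 and 76.0 in hasty and 70.8 in WT. All 6 low N libraries lay below the 3 control libraries that list miR822. The 3 libraries left out are all controls, and the zeros of miR822 itself picked them. Among these, hasty control replicate 3 held miR839-5p at 102.3 CPM, above the 66.2 and 61.3 CPM of the hasty control libraries kept. Whether the lower ratio holds for the full control groups therefore cannot be told. The difference was -0.61 on the log2 scale, or 1.52-fold lower in low N than in control (two-sided exact permutation within genotypes, p = 0.025, the smallest that 40 assignments allow; adjusted over 8 tests, p = 0.067). Without hasty control replicate 1 or replicate 2 the difference was -0.68 or -0.54, and p was 0.0625, the smallest possible there. Without WT control replicate 1, which leaves the comparison to hasty alone, it was -0.59 with p = 0.1, again the smallest possible (exact permutation). Between hasty and WT the ratio differed by -0.014 (exact permutation within conditions, p = 0.90).

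The 2 arms of miR822 were listed at similar counts, with miR822-3p above miR822-5p in each of the 9 libraries. There were 1.03, 1.16 and 1.44 counts of miR822-3p per count of miR822-5p in hasty low N, 1.41, 1.30 and 1.09 in WT low N, 1.31 and 1.21 in hasty control and 1.09 in WT control. The groups overlapped, with means of 1.21 ± 0.21 in hasty low N and 1.26 ± 0.16 in WT low N (SD, n = 3). Over the 9 libraries the log2 ratio differed by 0.067 between hasty and WT (exact permutation p = 0.58) and by 0.064 between low N and control (exact permutation p = 0.70). With the unlisted libraries entered at a ratio of 1, through a pseudocount of 0.5, the differences were 0.054 (p = 0.64) and 0.16 (p = 0.175, exact permutation). The arms together made up 0.29% to 0.68% of the listed counts in the 9 libraries.

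**Figure D4:**
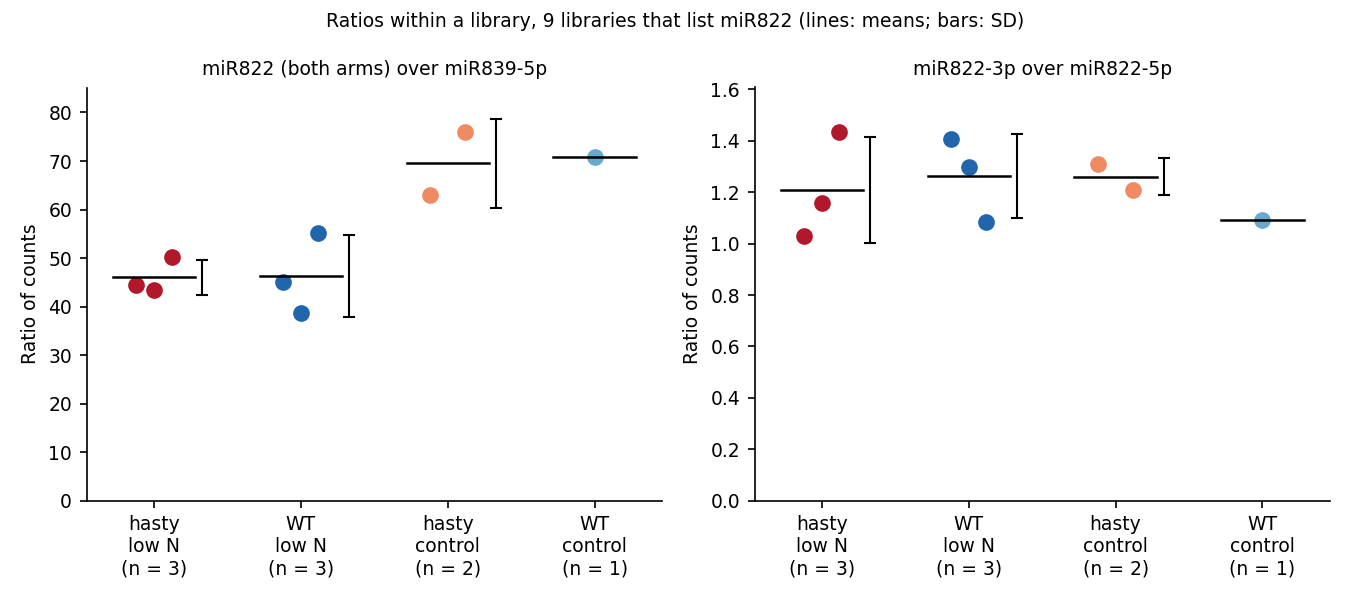
Ratios of counts within each of the 9 libraries that list miR822 (y axes), by group (x axes), for both miR822 arms over miR839-5p (left) and for miR822-3p over miR822-5p (right); lines are means and bars SD. On the left the 6 low N libraries sit between 38.6 and 55.2 and the 3 control libraries between 63.0 and 76.0, and on the right the groups overlap.

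The 3 names varied together across the 9 libraries. Pearson's r of log2(CPM + 1) was 0.92 between the miR822 arms, 0.86 between miR822-3p and miR839-5p and 0.82 between miR822-5p and miR839-5p, over points that share library, genotype and condition. Among 90 other known sequences above 0 in every library, those most like miR839-5p over 12 libraries were miR156b-3p (r = 0.95), the less studied arm of a juvenile-phase family, miR824-5p (0.95), which acts on AGL16, and miR858a (0.93), which acts on MYB genes. Most like miR822-3p over 9 libraries were miR858a (0.97), miR824-5p (0.92) and miR166e-5p (0.90). Most like miR822-5p were miR166e-5p (0.98), miR858a (0.90) and miR824-5p (0.88). Over all 12 libraries, with the zeros, the names most like both miR822 arms were miR171c-5p (0.71), miR319a (0.71) and miR824-5p (0.65).

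Another family described as cut by DICER-LIKE 4, miR869, was listed as miR869.2 at 11 counts in 1 hasty low N library, at 13 in 1 WT low N library, at 25 and 20 in 2 hasty control libraries and at 37 in 1 WT control library, and at 0 in the rest. Of 64 other names of young families, 34 were tested. In hasty against WT over 12 libraries, 18.7% of all names were called higher and 27.1% lower in control, and 11.4% higher and 23.4% lower in low N. Over 9 libraries these shares were 9.16% and 15.0% in control, and 12.1% and 21.6% in low N. Of the 34 young names, 5 were higher and 7 lower in hasty in control over 12 libraries, and 3 higher and 5 lower over 9. In low N 5 were higher and 7 lower over 12 libraries, and 3 and 7 over 9. Their median log2 changes over 12 libraries were -0.20 in both conditions, beside 0.0 over all names, and 0.01 in control over 9. Low N against control gave 3 higher and 3 lower young names in each genotype over 12 libraries, where 17.2% of all names were higher and 15.0% lower in WT, and 8.79% and 15.0% in hasty. Over 9 libraries it gave 2 higher and 3 lower in WT, where 9.89% and 10.6% of all names were, and 2 higher and 1 lower in hasty, where 5.86% and 6.23% were.

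Of 132 tested names of conserved families, 28 were higher and 43 lower in hasty in control over 12 libraries, and 11 and 25 over 9. In low N, 11 were higher and 42 lower over 12 libraries, and 13 and 38 over 9. Triggers of secondary small interfering RNAs, whose products DICER-LIKE 4 also cuts, had 0 of 8 names called in hasty against WT in control and 2 higher in low N, in either fit. Their fitted sizes include groups listed at 0, so no median is given. Names that share 1 mature sequence are not independent. The 132 conserved names hold 85 sequences, the 8 triggers 7, and the 10 names of the next list 7. The lists also overlap. Every name of the next list is also among the conserved names, and some triggers are among the conserved or the young names. Over 12 libraries 18.7% of all names were called higher and 27.1% lower in hasty in control, and 11.4% and 23.4% in low N. Regulators of the small RNA machinery itself, miR162 for DCL1 and miR168 and miR403 for ARGONAUTE genes, had 2 higher and 6 lower of 10 in hasty in control over 12 libraries, and 2 and 5 over 9. In low N they had 0 higher and 7 lower over 12 libraries, and 2 and 5 over 9, with median log2 changes of -1.17 in both fits.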

How the data were processed

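Small RNA libraries (12, from 4 groups of 3) were prepared by adaptor ligation and PCR, per the labels' protocols. The authors deposited 1 table of counts by miRNA name, which is called TPM but holds only whole numbers with unequal library sums; the aligner, counter and versions are not given in the sources used here, and the submitters' processing notes name only a mouse build. Names were matched to TAIR10.1 by product name (216 of 216 known names). Counts were filtered with filterByExpr (273 of 390 names kept), scaled with TMM and tested with edgeR 4.0.16 (glmQLFit, glmQLFTest, two-sided; 1 coefficient per group, 8 residual degrees of freedom) in R 4.3.3, with Benjamini-Hochberg adjustment over all names tested and a threshold of 0.05. The SE is the change divided by the square root of F. Fits that left out 1 library and the fit over 9 libraries kept the same 273 names. Fits on only the groups compared were filtered anew. The fit over 9 libraries, with 5 degrees of freedom, was added after the zeros of miR822 were seen. DESeq2 1.42.0 and limma 3.58.1 were alternatives. Hairpins were folded with RNAfold 2.7.2 and aligned with blastn 2.17.0. Members and lists were chosen with earlier results of these data known; other names were the 3 with the highest correlation to each member over 12 libraries, and miR869; the names most alike over 9 libraries and NovelmiRNA-46 were added after their values were seen. The young list covers families by number, with miR403 counted as conserved and the members left out. The edgeR fit was tested on simulated data. Counts lack molecular identifiers, and counting error was not measured apart from the spread between replicates.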

Additional observations from a re-analysis of the deposited data

How the results depend on the processing

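All 3 names had a log2 change above 0 in the 4 simple comparisons in each of the 268 values over 23 settings. The settings reuse the same libraries, so these values are not independent. The zeros of miR822 all lie in control libraries, and where kept they raise its change between low N and control. For miR822-3p in WT that change was 2.27 over 12 libraries and 0.68 over 9. For miR839-5p, hasty against WT in low N (0.63, adjusted p = 0.071 in edgeR) passed the threshold with no filter on low counts (0.84), median-of-ratios factors (0.77), library totals (0.67), DESeq2 (0.76), only the groups compared (0.68) and the 9 libraries that list miR822 (0.63). Low N against control in hasty missed it with library totals (0.72, adjusted p = 0.051) and in a replicate block fit (0.83, adjusted p = 0.057), and hasty against WT in control missed it over 9 libraries (0.78). For miR822-3p, hasty against WT in low N passed it with only the groups compared (0.65) and over 9 libraries (0.60), as did miR822-5p (0.72 and 0.67). Over 9 libraries miR822-3p also passed it in control (0.84) and for low N in WT (0.68), and the interaction of miR822-5p changed sign (0.03). DESeq2 gave no p for miR822. Library totals shifted the median of all names by -0.21 (hasty against WT, control), -0.33 (low N, WT) and 0.27 (interaction), and median-of-ratios factors by 0.14 (hasty against WT, low N).

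Without each library in turn, the log2 changes of miR839-5p were 0.75 to 1.21 (hasty against WT, control), 0.52 to 0.82 (low N), 1.03 to 1.38 (low N against control, WT), 0.71 to 1.07 (hasty) and -0.58 to -0.12 (interaction). For miR822-3p they were 1.25 to 14.82, 0.49 to 0.81, 1.68 to 15.23, 0.44 to 1.58 and -14.21 to -0.63, and for miR822-5p 1.05 to 14.49, 0.56 to 0.87, 1.48 to 14.9, 0.51 to 1.7 and -13.82 to -0.3. The extremes come from leaving out WT control replicate 1, after which that group is listed at 0 throughout and the fitted change depends on the prior count; both arms then passed the threshold in hasty against WT control (adjusted p = 0.018) and low N in WT (0.025). The miR822 arm balance over 12 libraries, with the 3 unlisted libraries entered at a ratio of 1, differed by -0.011 to 0.11 (genotype; -0.011 without hasty low N replicate 3) and 0.096 to 0.216 (nitrogen). Over the 9 libraries with a measured ratio it differed by -0.071 to 0.122 and -0.074 to 0.118, so no direction held. The ratio of miR822 to miR839-5p differed by -0.082 to 0.054 (genotype; 0.006, 0.053, 0.054 and 0.004 without hasty low N replicate 2, WT low N replicate 3, hasty control replicate 1 or WT control replicate 1) and -0.676 to -0.54 (nitrogen), and the miR839-5p level by 0.695 to 0.893 and 0.923 to 1.121. Without WT control replicate 1, the 9-library tests use only the stratum that still holds both levels.

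Names called numbered 125, 95, 88, 65 and 5 in the 5 contrasts, and 108 to 129, 79 to 100, 68 to 91, 49 to 71 and 3 to 11 without 1 library. Over 9 libraries 66 were called for hasty against WT in control, 56 for low N in WT, 33 for low N in hasty and 9 for the interaction. DESeq2 called 143 for hasty against WT in low N and 25 for the interaction, limma 13 and the replicate block 3 for the interaction, and with 1 mature sequence counted once, which tests fewer names, 53 were called for low N in WT. The replicate block changed no other call of the 3 names; same-numbered libraries deviated with correlations of -0.31 to 0.40 over 18 pairs, so the numbers do not pair them. The cause of the changed calls was not tested.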
